A study of Mus musculus with 12 samples.

Results

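The change of gene expression from Day 0 to Day 4 of dextran sodium sulfate (DSS) treatment was followed in colonic epithelial cells that lack *Tfeb*. The genes followed were those with a deposited FPKM (fragments per kilobase of transcript and per 1000000 mapped fragments) of at least 5 on either day in *Tfeb* ΔIEC animals, which left 4602 of the 47632 genes in the tables. Of these, 3352 reached 5 FPKM on both days, 837 on Day 0 only and 413 on Day 4 only. The *Tfeb* ΔIEC animals (labelled KO) were C57/BL6 mice with floxed *Tfeb* alleles and Cre recombinase under the villin promoter, which is active in the epithelium of the small intestine and colon and leaves *Tfeb* in stromal and immune cells. Control animals (labelled WT) were *Tfeb* flox/flox littermates of the same strain without Cre, so the floxed alleles were shared by all animals. Each genotype had 2 animals on each day, and different animals were used on Day 0, Day 4 and Day 11. In both genotypes the animals of Day 0 were 12 and 10 weeks old, those of Day 4 were 12 weeks old, and those of Day 11 were 10 weeks old. The labels give DSS on day 0 for the Day 0 animals, which the study describes as untreated. Animals of Day 4 and Day 11 had received DSS in drinking water, at 2.5% per the sample labels and at a slightly lower concentration per the methods. Those of Day 11 had then recovered on water alone. The whole series holds 12 samples in 6 groups.

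DSS is toxic to the colonic epithelium and strips its mucus barrier, so that luminal bacteria reach the tissue. The epithelium answers such injury in a known way. Antimicrobial lectins of the Reg3 family are induced, antigen presentation genes rise under interferon, stem and dividing cells of the crypt base are lost, and surviving cells take on a wound-associated program marked by *Ly6a* and Sprr genes. TFEB is a basic helix-loop-helix factor known as a regulator of lysosome and autophagy genes, which it binds at CACGTG-containing elements.

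Each group is represented by 1 FPKM per gene that the authors made from both animals, so no difference given here has a replicate check, and neither an error nor a p-value is given for any of them. The depth behind these values is unknown. The tables of the days were scaled separately, and each column was therefore divided by its sum and multiplied to 1000000. The rescaled value is the level used throughout, and changes are log2 ratios of Day 4 over Day 0 after addition of 1. A gene is said to have risen or fallen where this ratio was past 4-fold. Because animals, day and table change together, the effect of DSS, the ages of the animals and the processing of each day cannot be told apart. In cells isolated in bulk, fewer cells of a type and less RNA per cell cannot be told apart either.

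The Day 4 column of *Tfeb* ΔIEC was not distinct from the Day 11 column in the way that Day 0 and Day 4 were. Of 12826 genes above 0 in both, 1310 (10.2%) had exactly the same FPKM on Day 4 and Day 11, while none of 11363 genes above 0 on Day 0 and Day 4 did. After rescaling, 3075 of 4540 of the genes followed (67.7%) lay within 1.1-fold between Day 4 and Day 11. The Day 11 animals differed from those of Day 4 by age and by a recovery period on water. Day 11 values are therefore given beside the main results, and the Day 4 column cannot be taken as an independent record of that day alone.

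**Figure D1:**
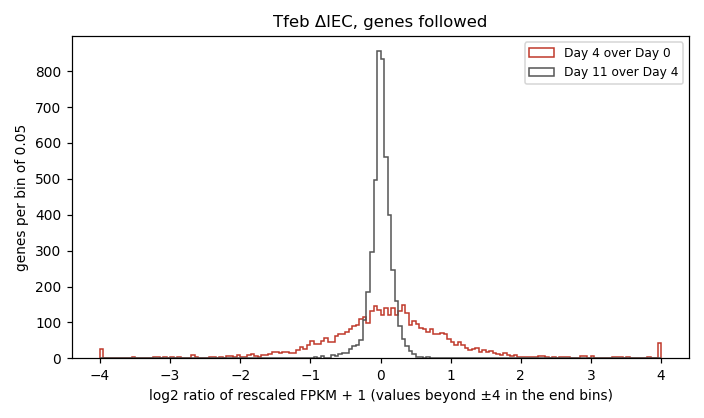
Distribution of log2 ratios of rescaled FPKM + 1 over the 4602 genes in Tfeb ΔIEC (x axis), in genes per bin of 0.05 (y axis). The ratio of Day 4 over Day 0 (red) is broad, with quartiles at -0.37 and 0.60, while the ratio of Day 11 over Day 4 (grey) is a narrow peak, with 3075 of 4540 genes within 1.1-fold.

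The label of the cells was checked against marker genes. All 11 epithelial markers were at 5 FPKM or more on both days, and their summed level was 15030 on Day 0 and 25580 on Day 4. The 6 colonocyte markers summed to 27775 and 45388 and the 6 goblet cell markers to 15421 and 19909. The 3 or 4 defining markers each of T and NK cells, B and plasma cells, macrophages and dendritic cells, stromal cells and endothelial cells were under 5 FPKM on both days. In the longer lists of such cells the immunoglobulin genes *Igkc* (32.1 and 33.1 FPKM) and *Igha* (12.6 and 19.7 FPKM) and the chemokine gene *Ccl5* (9.21 and 8.63 FPKM) were above it on both days, as was *Cd14*, and *Fcer1g* was on Day 4. Of 4 neutrophil markers, *Csf3r*, *Cxcr2* and *Retnlg* were at 0 on both days and *Ly6g* was not. *Tfeb* itself was under the limit of 5 FPKM, at 0.185 FPKM on Day 0 and 0 on Day 4 in *Tfeb* ΔIEC, against 0.901 and 1.08 FPKM in controls. The apolipoprotein gene *Apoa1* was at 0 and 1.89 FPKM in *Tfeb* ΔIEC, against 17.7 and 4.99 in controls. The α defensin genes *Defa21*, *Defa25* and *Defa26* were listed at 0 on both days in *Tfeb* ΔIEC, so none of these 3 Paneth cell products entered the comparison.

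Between Day 0 and Day 4, 153 genes rose past 4-fold in *Tfeb* ΔIEC, which is 3.32% of the genes followed, and 126 fell, which is 2.74%. Protein-coding genes made up 81 of the rises and 72 of the falls. Of the genes followed, 77.9% lay within 2-fold on the scale used. The median log2 change over all genes followed was 0.11, with quartiles at -0.37 and 0.60. Many of the calls rest on a value of 0, as 63 of the 153 genes were listed at 0 on Day 0 and 62 of the 126 on Day 4. The authors' status was other than OK in either table for 90 of the 279 calls, and among genes named below for *Cflar*, *Ly6c1*, *Mrpl47*, *Rnf43*, *Sh3bgr*, *Snurf*, *Trf* and *Fcgbp*. Among the 3352 genes at 5 FPKM or more on both days, 45 rose (1.34%) and 9 fell (0.268%). A gene past 4-fold meets this limit on both days only if it is well above 5 FPKM on 1 of them, so the limit itself bears on these counts. The median level of the 126 falls on Day 0 was 9.85, against 12.7 for all genes followed. That of the 153 rises on Day 4 was 27.2, against 13.8. The highest values past 4-fold were those of immunoglobulin J segments, which are among the shortest genes of the annotation. *Igkj5* (38 nt) was at 0 and 125235 and *Igkj2* (39 nt) at 192095 and 0, and small or unnamed genes made up 60.5% of the column sum on Day 0 and 48.8% on Day 4. Rescaling by other sums moved the centre. With the sum over nuclear protein-coding genes, the median of all genes dropped by 0.48 to -0.37, the counts became 127 higher and 244 lower, and the share of rises among calls became 34.2% in place of 54.8%. Gene lists are therefore read against the median of all genes, which in controls was -0.69, so that a control list median near -0.69 lies at the centre of its own columns. Of the 39 members of gene lists past 4-fold, 17 stayed past it under each of 5 other scalings, a pseudocount of 5 and the Day 11 column. Those higher on Day 4 were *Reg3b*, *Reg3g*, *Ly6a*, *Ly6g*, *Ccnd2*, *Krt20*, *Clca4a*, *Cd74*, *H2-Aa*, *H2-Ab1*, *Psmb8*, *Akr1c19*, *Dgat2*, *Txnrd3* and *Fcgbp*. Those lower were *Pla2g2a* and *Txnrd2*. The other 22 were within 4-fold under at least 1 of these settings. Of the 17, *Ly6g*, *Clca4a*, *H2-Aa*, *H2-Ab1*, *Dgat2*, *Txnrd3* and *Fcgbp* passed the limit of 5 FPKM through Day 4 only, so the limit set their direction. The Day 0 value of *Fcgbp* is a failed estimate, and its change is not read as a rise. The Day 11 column is close to that of Day 4, so staying past 4-fold there is no independent check.

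**Figure D2:**
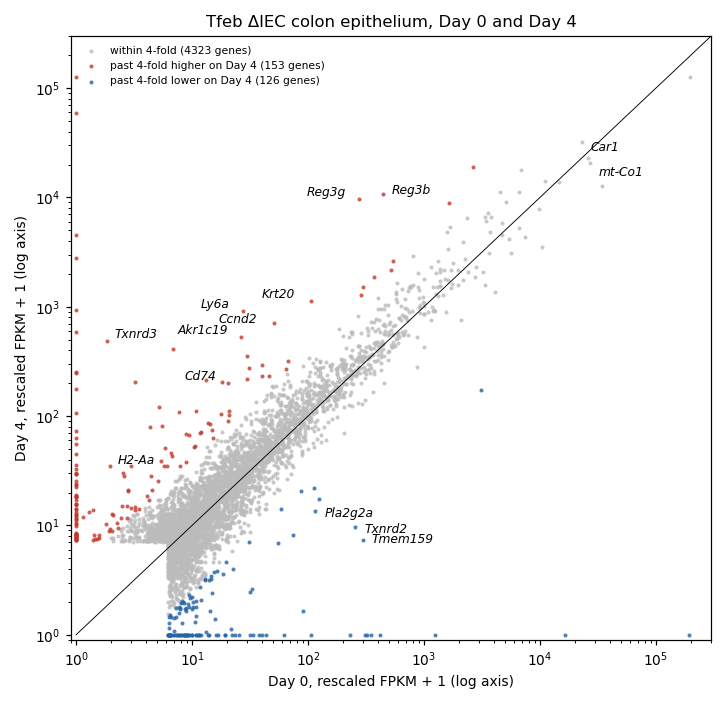
Levels of the 4602 genes in Tfeb ΔIEC epithelium on Day 0 (x axis) and Day 4 (y axis), as rescaled FPKM + 1 on log axes, 1 pooled value of 2 animals per day. The 153 genes past 4-fold higher are red and the 126 past 4-fold lower are blue, and points on either axis line are listed at 0 on that day. Reg3b and Reg3g stand far above the line of equal levels at high abundance.

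The most abundant protein-coding genes that rose encode secreted lectins of the antibacterial defence. *Reg3g*, whose product kills Gram-positive bacteria at the mucosal surface, went from 272 on Day 0 to 9723 on Day 4, a 35.6-fold rise on the scale used, and stood at 9479 on Day 11. Its neighbour *Reg3b* went from 438 to 10757 (24.5-fold) and was at 10357 on Day 11. Both genes were thus abundant on Day 4, below *mt-Cytb* (13746), a mitochondrial mRNA. They lie on chromosome 6 of mm10, in the loci 78466268 to 78468872 for *Reg3g* and 78370656 to 78373466 for *Reg3b*, and every 50-base sequence of their transcripts (100%) was found in no other gene. The 250 bases before their starts, from RefSeq on GRCm38.p6, are shown because these neighbours of 1 family rose together. The *Reg3b* sequence is chr6:78370635-78370884 on the plus strand and the *Reg3g* sequence chr6:78468875-78469124 on the minus strand, and capitals mark TTCNNNGAA, a palindromic core of cytokine-responsive elements.
Reg3b: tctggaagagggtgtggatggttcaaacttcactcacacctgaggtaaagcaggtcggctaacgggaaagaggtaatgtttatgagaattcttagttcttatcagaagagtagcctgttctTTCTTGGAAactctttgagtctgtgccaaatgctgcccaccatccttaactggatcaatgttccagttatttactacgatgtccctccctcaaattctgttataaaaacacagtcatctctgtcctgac
Reg3g: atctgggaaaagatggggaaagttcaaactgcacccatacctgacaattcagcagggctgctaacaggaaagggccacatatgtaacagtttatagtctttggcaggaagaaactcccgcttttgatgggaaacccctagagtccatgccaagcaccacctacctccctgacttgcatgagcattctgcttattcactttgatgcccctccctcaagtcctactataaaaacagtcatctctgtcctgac
The 2 sequences were identical at 173 of 253 aligned positions (68.4%). TTCNNNGAA was found in *Reg3b*, beginning 129 bases before the start, and these letters are not in the *Reg3g* window. They occur on either strand in 9.55% of the 300-base windows of 27025 genes. In controls the pair went the same way, from 260.2 to 13633 for *Reg3g* and from 368 to 16999 for *Reg3b*.

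Other secreted products did not follow the Reg3 pair to the same extent. Of the 34 antimicrobial and acute-phase genes listed, 16 were measured, 2 rose, 1 fell, and their median change was 0.90. *Lypd8*, which keeps flagellated bacteria off the epithelium, was at 6896 and 17957 (log2 change 1.38). *Zg16*, a lectin of the mucus layer, was at 5063 and 9012, and the peptidoglycan-binding *Pglyrp1* at 225 and 529.6. The 1 member that fell was *Pla2g2a*, a secreted phospholipase that kills Gram-positive bacteria and is annotated as a polymorphic pseudogene in this strain's reference. It went from 114 to 12.5 in *Tfeb* ΔIEC, an 8.54-fold fall, whereas in controls it went from 4.37 to 79.1. Of the 2 measured Paneth cell genes, *Ang4* was at 609 and 791, and *Pla2g2a* is the other. *Nox1*, the NADPH oxidase of colonic epithelium, was at 5.49 and 1.28, under the 4-fold limit at -1.51 but past it under 2 other scalings (-2.15 and -2.23), and the growth-associated lectin *Reg4* at 3345 and 1587. Of 37 cytokine and chemokine genes only 9 were measured and none was past 4-fold, with *Il18* at 25.7 and 64.0, *Cx3cl1* at 4.33 and 11.1, and *Ccl28* at 9.95 and 4.90. Their median of 0.14 changes sign with the scaling, between -0.33 and 0.14.

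Genes of antigen presentation to CD4 T cells were higher on Day 4. All 8 listed class II genes were above their Day 0 level, with no limit on FPKM, and their summed level was 26.3 on Day 0 and 288 on Day 4. The 4 measured members were past 4-fold, but *H2-Aa*, *H2-Ab1* and *H2-Eb1* passed the limit of 5 FPKM only on Day 4, where they are high, so their being higher was set by the limit, and only *Cd74* was above it on both days. *H2-Aa*, the α chain of I-A, went from 1.56 to 28.9 (11.7-fold), and its partner *H2-Ab1* from 4.38 to 37.9 (7.23-fold). *H2-Eb1*, a β chain gene, went from 0.400 to 12.8 (9.88-fold), but with a pseudocount of 5 it was short of 4-fold, at 1.72. The invariant chain *Cd74*, which escorts class II molecules, went from 19.3 to 201 (9.97-fold). On Day 11 these 4 genes were at 29.7, 37.2, 13.4 and 211. The same 4 genes were within 4-fold in controls, where *H2-Aa* was at 9.46 and 8.24, *H2-Ab1* at 14.3 and 13.4, *H2-Eb1* at 4.45 and 4.08, and *Cd74* at 35.6 and 14. Levels of class II genes on Day 0 were thus lower in *Tfeb* ΔIEC than in controls, and on Day 4 higher. The remaining 4 genes of the list were under 5 FPKM, with *H2-DMa* at 0.596 and 4.40 FPKM, *H2-DMb1* at 0 and 0.677, *H2-DMb2* at 0 and 0.211, and the class II transactivator *Ciita* at 0.0725 and 0.237. The 250 bases before the starts of *H2-Aa* (chr17:34287824-34288073, minus strand) and *H2-Eb1* (chr17:34305617-34305866, plus strand), from RefSeq on GRCm38.p6, are shown because both genes were past 4-fold higher and class II promoters are known for a shared Y box, whose letters CTGATTGG are in capitals.
H2-Aa: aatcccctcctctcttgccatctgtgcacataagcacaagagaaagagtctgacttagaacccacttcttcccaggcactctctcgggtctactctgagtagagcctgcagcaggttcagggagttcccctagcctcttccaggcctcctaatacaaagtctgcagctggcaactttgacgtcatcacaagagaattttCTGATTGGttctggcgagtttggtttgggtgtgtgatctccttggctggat
H2-Eb1: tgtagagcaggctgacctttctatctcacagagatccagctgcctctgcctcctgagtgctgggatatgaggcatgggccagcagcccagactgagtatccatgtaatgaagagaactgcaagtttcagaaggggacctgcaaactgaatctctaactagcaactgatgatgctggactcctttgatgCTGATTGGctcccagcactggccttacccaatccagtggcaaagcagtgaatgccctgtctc
CTGATTGG begins 51 bases before the start of *H2-Aa* and 62 before that of *H2-Eb1*. On either strand it was in 2 of 5 class II genes with a promoter sequence (40.0%), in 7 of 20 class I presentation genes (35.0%) and in 4.70% of all 27025.

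Professional antigen-presenting cells carry class II genes as well, and their markers were therefore set beside the result. Of 20 macrophage and dendritic cell genes, 14 were at 0 on Day 0 and 12 on Day 4, and the summed level of the list was 11.9 and 37.3. *Itgax*, *Cd68*, *Tyrobp*, *Flt3* and *Adgre1* were at 0 on both days. The 2 measured members were *Fcer1g*, a signalling chain of Fc receptors, at 3.10 and 17.8 (4.57-fold, and 1.95 and 1.92, short of 4-fold, under 2 other scalings), and *Cd14*, the lipopolysaccharide coreceptor, at 5.36 and 11.1. *C1qb* was at 0 and 3.26 FPKM. The part of such cells in the class II result was not tested beyond these levels. B and plasma cell genes summed to 49.4 and 74.7, and T and NK cell genes to 18.0 and 27.9.

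Class I presentation genes lay above the median of all genes in 17 of 20 cases, at a median of 1.14 in *Tfeb* ΔIEC and -0.77 in controls (all genes -0.69), and under every scaling their median stayed above 0. The 17 above 5 FPKM on both days had a median of 1.12. The immunoproteasome subunit *Psmb8* was the 1 member that rose, from 10.7 to 69.5 (6.03-fold), and in controls it went from 23.7 to 97.9. The other inducible subunits *Psmb9* and *Psmb10* were at 6.26 and 21.2, and at 40.7 and 106. *B2m*, the light chain of class I, was at 587 and 1645, *H2-K1* at 742 and 1495, and *H2-D1* at 425 and 947. *Psme1*, a proteasome activator subunit, was at 48.5 and 183. *Tap1*, the peptide transporter, was at 3.57 and 11.2, and it lies head to head with *Psmb9* within 1 deposited locus on chromosome 17 (34181987 to 34197225).

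Interferon-induced genes were low, and only 13 of the 47 listed were measured, with a median of 1.13 (controls -0.08). Of these, 5 passed the limit through Day 4 only, and the 7 above it on both days had a median of 0.98. *Zbp1*, a nucleic acid sensor that starts necroptosis, was the 1 member that rose, from 1.46 to 14.2 (6.17-fold), and it stood at 7.31 and 30.6 in controls. It was under 5 FPKM on Day 0, and with a pseudocount of 5 it was short of 4-fold, at 1.57. *Oas1a* (4.07 and 15.9) and *Oas1g* (2.19 and 9.53), which make the activator of RNase L, came next, but only 42.4% and 54.3% of their 50-base sequences occur in no other gene. *Irgm1*, an interferon-induced GTPase of autophagy, was at 7.67 and 21.6 in *Tfeb* ΔIEC and at 9.30 and 1.75 in controls. The factors *Irf1* (29.2 and 58.4) and *Irf7* (20.6 and 46.2) stayed within 4-fold. GAAANNGAA, the core of the interferon-stimulated response element, was in 22 of 32 promoters of this list (68.8%), in 10.5% of those of genes that rose and in 9.76% of all.

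Markers of wound-associated epithelium stood above the median of all genes in 15 of 15 measured cases out of 38 listed, and 5 of them rose. These include 12 that were at 5 FPKM or more on both days, at a median of 1.40, while 3 passed through Day 4 only. *Ly6a*, the surface protein Sca-1 that marks regenerating epithelium, went from 26.5 to 906 (33.0-fold) in *Tfeb* ΔIEC and from 71.4 to 1388 in controls. The calcium-binding *S100a11* went from 19.8 to 110.3 (5.36-fold), and its paralogue *S100a6* was at 1577 and 4804. Only 58.9% of the 50-base sequences of *S100a11* occur in no other gene, so its value is uncertain. This share was not computed for *Sprr2a3*, named below. The membrane-binding *Anxa2* went from 368 to 1892 (5.13-fold). *Sprr2a3*, a cornified envelope precursor, went from 286 to 1280.1, and *Sprr1a* from 0 to 7.42. *Sprr1a* passed the limit of 5 FPKM through Day 4 only and was at 1.31, short of 4-fold, with a pseudocount of 5. *Areg*, a ligand of the EGF receptor, was at 2.38 and 11.8, short of 4-fold. The list had a median of 1.52, and of 0.83 in controls. With the sum over nuclear protein-coding genes *S100a11*, *Anxa2* and *Sprr2a3* were short of 4-fold, at 1.97, 1.87 and 1.67, and *Sprr2a3* was so under 2 more scalings.

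Of 10 Ly6 genes on chromosome 15, 4 were measured, and *Ly6e* was at 103 and 250.2, within 4-fold. *Ly6g* went from 4.21 to 120.7 in *Tfeb* ΔIEC and from 1.21 to 109 in controls, and *Ly6c1* from 0 to 24.7 and from 0 to 23.9. *Ly6g* is best known from neutrophils. Of the 16 neutrophil genes listed, 14 were at 0 on Day 0 and 14 on Day 4, *S100a9* and *Mpo* on both, and *S100a8* was at 0 and 1.15 FPKM. The part of neutrophils in the *Ly6g* value was not tested. Of all 50-base stretches in their transcripts, those absent from other genes made up 81.0% for *Ly6a*, 67.2% for *Ly6c1* and 99.5% for *Ly6g*, so the values of *Ly6a* and *Ly6c1* are less certain than that of *Ly6g*.

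Genes of surface colonocytes were higher on Day 4 as a group. Of 27 measured genes of colonocyte function, 22 lay above the median of all genes, 2 rose and none fell, and the median was 0.79. The 22 above 5 FPKM on both days had a median of 0.80, and 3 genes, *Clca4a* among them, passed through Day 4 only and 2 through Day 0 only. *Krt20*, a keratin of cells at the mucosal surface, went from 104 to 1135 (10.8-fold) and was at 1132 on Day 11. *Clca4a*, a regulator of chloride transport, went from 3.35 to 77.8, with 62.9% of its 50-base sequences in no other gene. Transporters of the absorptive cell stayed within 4-fold, among them the chloride-bicarbonate exchanger *Slc26a3* (115 and 329.9) and the water channel *Aqp8* (31.0 and 84.5). *Car1*, a carbonic anhydrase and the highest protein-coding gene of the Day 4 column, was at 22934 and 32442. *Slc12a2*, the chloride loader of crypt cells, lay at the other end, at 9.40 and 2.46, and was past 4-fold lower under 2 other scalings (-2.10 and -2.23). In controls *Krt20* was at 173 and 69.2, *Slc26a3* at 88.0 and 22.7 and *Aqp8* at 203 and 17.3, and the median of the list was -1.31.

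**Figure D3:**
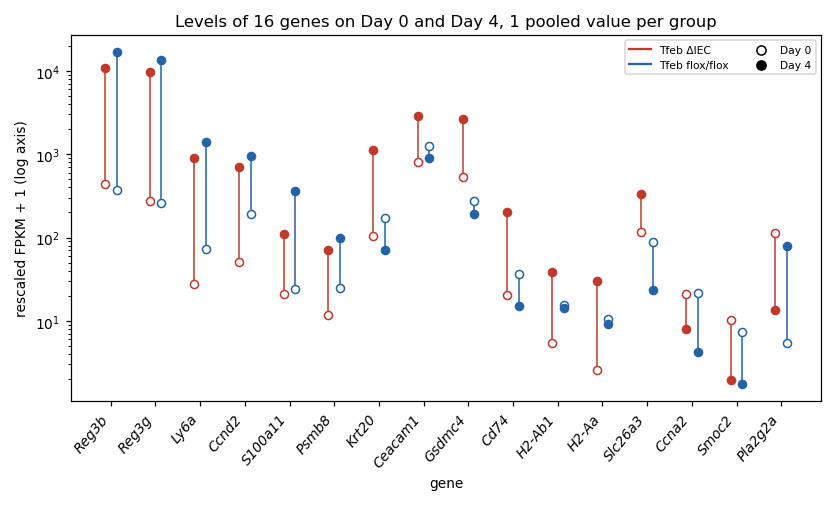
Levels of 16 genes as rescaled FPKM + 1 (log axis) in Tfeb ΔIEC (red) and Tfeb flox/flox (blue) on Day 0 (open) and Day 4 (filled), 1 pooled value of 2 animals per point. Reg3b, Reg3g, Ly6a and Ccnd2 were higher on Day 4 in both genotypes, while Krt20, Cd74 and Slc26a3 were higher on Day 4 in Tfeb ΔIEC and lower in controls.

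The 15 genes of epithelial identity had a median of 0.75 and none was past 4-fold, with *Epcam* at 1385 and 2198, *Cdh17* at 100.2 and 340.2, *Elf3* at 238 and 564, and the intestinal master regulator *Cdx2* at 20.9 and 16.1. Genes of cell junctions had a median of 0.60, and *Tjp1*, the scaffold protein ZO-1, was the 1 of 22 that rose, from 1.45 to 10.8. It passed the limit of 5 FPKM through Day 4 only, and with a pseudocount of 5 it was short of 4-fold, at 1.29. The claudin *Cldn8* was at 20.1 and 8.45.

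Goblet cell genes had a median of -0.29, below that of all genes, and 7 of 17 lay above it. The mucin *Muc2* was at 2817 and 2309, the disulfide isomerase *Agr2* at 5432 and 4189, and *Spink4* at 9729 and 7885. *Tff3*, a trefoil peptide of mucosal repair, was at 1311 and 2640.2, and the mucus protein *Clca1* at 798 and 1583. The regulators of the secretory lineage *Atoh1* (31.3 and 15.5) and *Spdef* (23.5 and 15.1) were on the lower side. *Fcgbp*, a large mucus glycoprotein, was listed at 0 on Day 0 and at 177 on Day 4, but its row in the Day 0 table has a failed estimate, so this value past 4-fold, the 1 of the list, is not read as a rise. Enteroendocrine genes were few above the limit, with *Pyy* at 13.2 and 21.7, *Gcg* at 26 and 40.8, *Chga* at 15 and 21.9, and *Chgb* at 20.0 and 20.7. Of 16 tuft cell genes only *Cd24a*, which crypt cells also express, was measured, at 236 and 122.

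Genes of the crypt base and of cell division were lower on Day 4. Of 20 stem cell and Wnt target genes, with no limit on FPKM, 15 were below their Day 0 level, 2 above and 3 equal, and their summed level was 62.2 on Day 0 and 14.7 on Day 4. The 5 measured genes all passed the limit of 5 FPKM through Day 0 only, so that the limit itself set their direction, and 2 of them fell, though neither with a pseudocount of 5 (-1.25 for *Smoc2* and -1.02 for *Rnf43*). *Smoc2*, a matrix protein of stem cells, went from 9.25 to 0.976 (5.19-fold) and *Rnf43*, a ubiquitin ligase that limits Wnt receptors, from 7.07 to 0.943 (4.16-fold). *Cd44* was at 7.64 and 2.31, and *Myc* at 6.15 and 2.44. The stem cell gene *Lgr5* was under the limit, at 1.30 and 0.210 FPKM, as were *Axin2* at 4.04 and 0, and *Lrig1* at 4.66 and 0.315.

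Of 36 genes of the cell cycle and DNA replication, 25 were measured and 23 of them lay below the median of all genes, at a list median of -1.02 that stayed below 0 under every scaling. Of the 25, 17 passed the limit through Day 0 only, and the 8 above it on both days had a median of -0.59. With no limit on FPKM, 31 of the 36 were below their Day 0 level. None of these 23 was past 4-fold, so the group is described by its common side and not by calls. The replication clamp *Pcna* was at 9.63 and 2.55, cyclin A2 (*Ccna2*) at 20.2 and 6.96, *Top2a* at 7.55 and 2.28, and *Cdk1* at 14.9 and 5.63. Under the sum over nuclear protein-coding genes, *Pcna* and *Top2a* would count as falls, at -2.22 and -2.02. The exceptions were the thymidylate synthase gene *Tyms*, at 5.54 and 6.41, and *Ccnd2*, a D-type cyclin of G1 phase, which rose from 49.5 to 707 (14-fold), from 192 to 949 in controls, and made up most of the list's summed level of 899 on Day 4. In controls the list median was -1.57, and *Ccna2* was at 20.7 and 3.20.

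Genes of cell death lay above the median of all genes in 17 of 21 cases (median 0.96, controls -0.27), with 4 rises and 1 fall. The 16 above 5 FPKM on both days had a median of 0.81. The gasdermins of the chromosome 15 cluster rose, *Gsdmc2* from 294 to 1527 (5.18-fold) and *Gsdmc4* from 535 to 2627 (4.90-fold), and in controls they were at 163 and 72.7, and at 276 and 193. Only 48.7% and 61.0% of their 50-base sequences are in no other gene, so the division of reads between them is uncertain. With the sum over nuclear protein-coding genes they were short of 4-fold, at 1.88 and 1.80. *Gsdmd*, the pore protein of pyroptosis, rose from 19.3 to 89.7, but was short of 4-fold under 3 other scalings (1.71 to 1.91) and with a pseudocount of 5 (1.96), and *Zbp1* is named above. *Cflar*, the inhibitor of caspase-8, fell from 13.2 to 0.655 (8.59-fold), and was at 0.270 and 0.345 in controls. It passed the limit through Day 0 only and was at -1.69 with a pseudocount of 5.

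All 16 measured genes of hypoxia and glycolysis had changes above 0, at a median of 0.82 that stayed above 0 under every scaling, and *Car9*, the carbonic anhydrase induced by HIF, rose from 6.94 to 33.8, a call that was lost under 3 of the other scalings (1.74 to 1.95). The glucose transporter *Slc2a1* was at 8.11 and 21, *Eno1* at 54.1 and 135, and *Ndrg1* at 36.6 and 92.0. In controls the median was -0.81, near the -0.69 of all genes.

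Lysosome genes, the known targets of TFEB, were measured in 44 of 62 cases, and none rose or fell past 4-fold, although *Manba* was past it under 2 other scalings (-2.36 and -2.49). Their median was 0.30, which changes sign with the scaling between -0.18 and 0.30, and 28 of 44 lay above the median of all genes. *Ctss*, a cysteine protease that also trims the invariant chain, was at 61.5 and 195. *Manba* was lowest in change, at 11.2 and 2.43. The cathepsins *Ctsa* (39.6 and 85.3), *Ctsb* (47.3 and 90.1) and *Ctsc* (16.5 and 24.5) and *M6pr* (28.2 and 33.4) stayed within 4-fold in *Tfeb* ΔIEC. CACGTG was in 20 of 48 lysosome gene promoters (41.7%) and in 8.09% of all, and the longer GTCACGTG, which contains it, in 31.2% and 2.55%. Among promoters of genes that rose CACGTG was in 3 of 57 (5.26%), among those that fell in 6 of 46 (13%), and among the genes followed in 12.8%.

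Of the autophagy genes 18 of 42 were measured, with none past 4-fold and a median of 0.22 that also changes sign between -0.25 and 0.22. CACGTG was in 4 of 33 of their promoters (12.1%). The receptor *Sqstm1* was at 70.0 and 129, *Becn1* at 19.7 and 39.3, and *Nbr1* at 24.5 and 10.0. *Nbr1* was at 17.9 and 1776 in controls. Among genes of the Tfeb family and its regulators, 8 of 26 were measured, none past 4-fold. These were mostly Ragulator subunits of the lysosomal mTORC1 platform, such as *Lamtor1* (17.4 and 24.4) and *Lamtor5* (13.5 and 8.12). The paralogue *Tfe3* was at 1.90 and 3.61 FPKM, and *Mitf* and *Tfec* at 0 on both days. *Atp6v0a2*, a membrane subunit of the vacuolar proton pump outside these lists, rose from 17.2 to 203 (11.2-fold), and was at 8.44 and 3.22 in controls.

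Few genes of housekeeping and metabolic groups were past 4-fold. The 84 measured cytosolic ribosomal protein genes had a median of -0.15 with no call, and 16 of them lay above the median of all genes, and 63 mitochondrial ribosomal protein genes -0.05, or 0.07 over the 50 above 5 FPKM on both days. Mitochondrial ribosomal proteins had 2 falls, *Mrpl2* from 85.3 to 19.9 and *Mrpl47* from 6.87 to 0.738, and with a pseudocount of 5 neither was past 4-fold (-1.86 and -1.05). Nuclear genes of oxidative phosphorylation (79 measured) had a median of 0.29 and 1 fall, that of the complex I assembly factor *Ndufaf6* from 10.8 to 1.74. It passed the limit through Day 0 only and was at -1.23 with a pseudocount of 5. Control medians were 0.29 for cytosolic ribosomal, -0.01 for mitochondrial ribosomal and 0.51 for nuclear oxidative phosphorylation genes, against -0.69 for all genes. The 12 mitochondrially encoded mRNAs had a median of -0.16, with *mt-Co1* at 26837 and 20532, *mt-Nd1* at 26223 and 22990.0 and *mt-Cytb* at 14676 and 13746. *mt-Nd3* was listed at 0 on Day 0, and 2.01% of its 50-base sequences are in no other gene. This share was 0% for *mt-Co2*, 0.136% for *mt-Co3*, 0.475% for *mt-Atp6*, 37.8% for *mt-Nd4* and 48.9% for *mt-Co1*. The values of these genes, and with them the list median, are uncertain. In controls the list median was -1.26. The medians of translation factors (38 measured, 0.01), proteasome subunits (34, 0.26), fatty acid oxidation (30, 0.23), xenobiotic metabolism (33, 0.38) and unfolded protein response genes (30, 0.20) change sign with the scaling. In the same lists controls were at -1.40, -0.89, -1.61, -1.80 and -1.04. Within them *Akr1c19*, an aldo-keto reductase, rose from 25.6 to 528 (19.9-fold), and *Psmb3*, a subunit of the proteasome core, from 0.906 to 7.92, though to 1.99 on the log2 scale, short of 4-fold, without rescaling, and to 1.13 with a pseudocount of 5. Heat shock chaperones had a median of -0.17, with *Hsp90aa1* at 26.1 and 7.93, and *Dnaja1* at 3.25 and 16.1 (4.03-fold), short of 4-fold under 4 other scalings (1.72 to 1.94). Cholesterol synthesis genes had a median of 0.51 and no call, and 17 of 22 lay above the median of all genes, with *Lss* at 16 and 5.13. With the sum over nuclear protein-coding genes *Lss* and *Hsp90aa1* were past 4-fold lower, at -2.04 and -2.15. Of lipid transport genes only 3 of 20 were measured, and *Dgat2*, an enzyme of triglyceride synthesis, rose from 4.82 to 49.99 (8.77-fold). It passed the limit of 5 FPKM through Day 4 only, which set its direction. Immediate early genes had a median of -0.19, and of 0.12 over the 7 of 10 above 5 FPKM on both days, with *Fos* at 87.8 and 143 and *Jun* at 46.8 and 26.3. No stromal or endothelial gene of 24 was measured, and of the 3 measured genes of erythrocytes 2 passed the limit through Day 0 only, which set their direction.

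**Figure D4:**
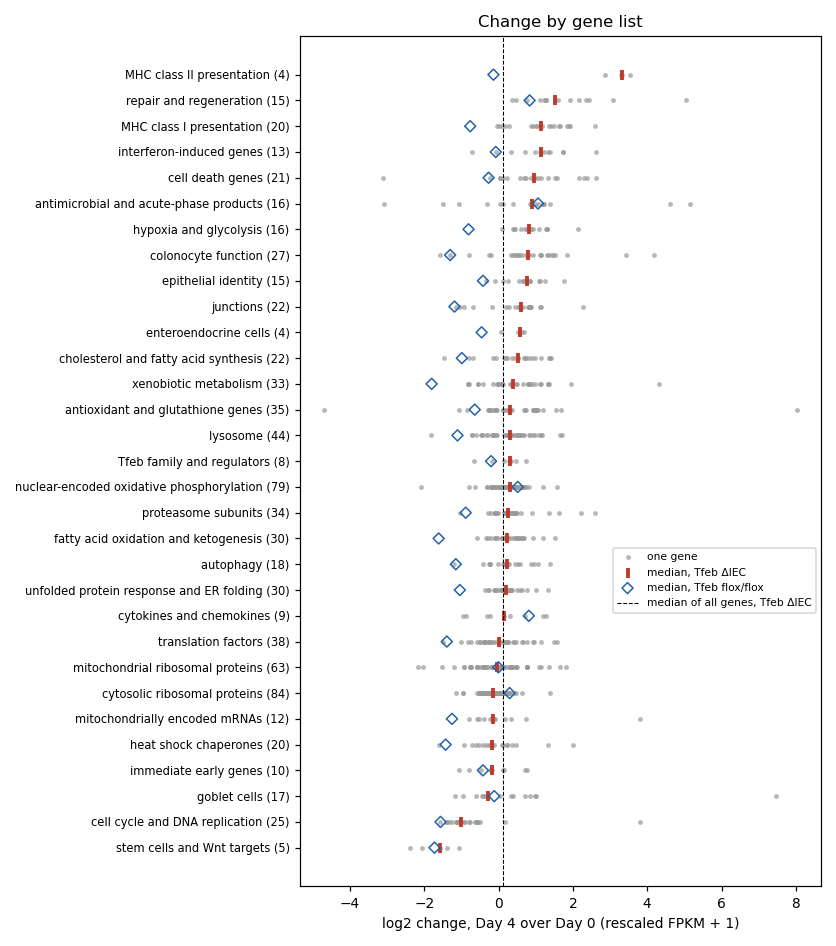
Log2 change of Day 4 over Day 0 (x axis) for gene lists with at least 4 measured genes (y axis, number measured in brackets). Grey points are single genes in Tfeb ΔIEC, red bars their median, open diamonds the median in Tfeb flox/flox, and the dashed line the median of all genes in Tfeb ΔIEC (0.11). Class II presentation is at 3.31 and stem cell and Wnt target genes at -1.59, lists in which 3 of 4 genes passed the 5 FPKM limit through Day 4 only and 5 of 5 through Day 0 only, and the 11 medians from 0.01 to 0.38 change sign with the scaling.

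Among genes with a usual symbol and a level above 0 on both days, the 15 largest rises were of 3.48 to 8.04 on the log2 scale, and the 15 largest falls of 2.70 to 5.78. Only 8 of these 15 rises and 4 of the 15 falls had at least 5 FPKM on both days. The largest rise was that of *Txnrd3*, a selenocysteine-containing thioredoxin reductase, from 0.835 to 484, with 534 on Day 11. In controls the same gene was at 526 on Day 0 and 0 on Day 4. Its mitochondrial relative *Txnrd2* went the other way, from 253 to 8.77 (26-fold) in *Tfeb* ΔIEC and from 792 to 6.02 in controls, and *Sepp1*, the selenium carrier, was at 1683 and 5351, and at 1011 and 36.2 in controls. *Selenof*, a selenoprotein of the endoplasmic reticulum that the tables list under a number in place of its symbol, was identified by its gene ID and named after its values were seen. It fell from 3106 to 171 (18.1-fold), with 188 on Day 11, and was at 4713 and 4647 in controls. *Txnrd3* and *Txnrd2* were the only members of the antioxidant list past 4-fold in *Tfeb* ΔIEC, and the 35 measured members had a median of 0.31 that changes sign with the scaling.

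*Ptpn6*, a tyrosine phosphatase of immune receptor signalling, went from 2.24 to 202, but was at 8.76 on Day 11, so that its rise is the exception among these 15 in not recurring in the Day 11 column. *Sptssb*, a subunit of serine palmitoyltransferase, went from 28.8 to 355, *Upp1*, uridine phosphorylase, from 2.00 to 34.1, *Uqcc1*, an assembly factor of complex III, from 6.71 to 109, and *Hemk1* from 4.50 to 79.6. Falls of this size were found for the forkhead repressor *Foxn3* (89.9 to 0.655), the lipid droplet protein *Tmem159* (294 to 6.32), the splicing factor *U2surp* (30.7 to 1.44), *Mettl17* (31.8 to 1.64) and *Aacs*, acetoacetyl-CoA synthetase (122 to 16.5). Among genes listed at 0 on Day 4, *Sh3bgr* was on Day 0 at 9.03, *Trf*, the iron carrier transferrin, at 8.27, and the DNA repair gene *Ercc1* at 7.92. *Snurf*, listed at 0 on Day 0 and at 17.1 on Day 4, has no 50-base sequence of its own (0%).

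In controls 73 of the same 4602 genes rose between Day 0 and Day 4 (1.59%) and 555 fell (12.1%), with a median change of -0.69 and 53.9% of genes within 2-fold. Of the 153 genes that rose in *Tfeb* ΔIEC, 22 also rose in controls, 17 fell there and 114 were within 4-fold. Of the 126 that fell, 17 fell in controls, 19 rose and 90 were within 4-fold. Among the 45 rises at 5 FPKM or more on both days, 11 rose in controls, including *Reg3b*, *Reg3g*, *Ly6a*, *Ccnd2* and *S100a11*, and 4 fell. The differences between the genotypes' changes were not tested, as there is 1 value per group.

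The change in controls moved with transcript length, and that in *Tfeb* ΔIEC varied little with it. Over 10 bins of equal size by length, the median change in *Tfeb* ΔIEC lay between -0.05 and 0.15, whereas in controls it was 0.24 among the shortest genes (38 to 486 nt) and -1.21 among genes of 2527 to 3019 nt. Colonocyte genes had a median length of 2908 nt, so the control values of -1.31 for that list stand beside this trend, as do those of other lists of long genes. The part of length in the control values was not tested.

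**Figure D5:**
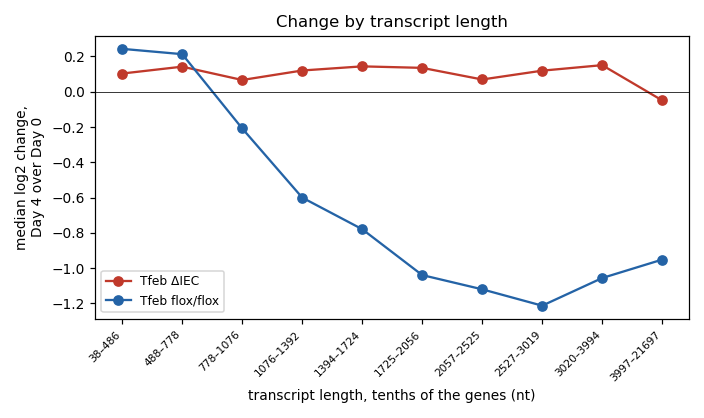
Median log2 change of Day 4 over Day 0 (y axis) in 10 bins of equal size by reference transcript length (x axis, range of each bin in nt). The red line (Tfeb ΔIEC) stays between -0.05 and 0.15, while the blue line (Tfeb flox/flox) runs from 0.24 in the shortest genes to -1.21 in the bin of 2527 to 3019 nt.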

How the data were processed

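Colonic epithelial cells were collected with EDTA, and total RNA was made into full-length cDNA by a variant of Smart-seq2 and sequenced in pairs on a MiSeq. The authors aligned reads to mm10 with TopHat2 2.0.14 and ran Cuffdiff 2.1.1 on each day. The deposited FPKM values are 1 per gene and group from 2 animals, with no count of reads and no value per animal. The columns of fold changes, test statistics, p-values and q-values of the genotype comparison in the same tables were not used.

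Columns were joined by gene identifier, divided by their sum and multiplied to 1000000, and log2 ratios were taken after addition of 1 (Python 3.11.15, pandas 2.3.3). The members, the 41 gene lists and the rules were chosen with earlier results of these data known. Named genes were the 15 largest changes each way above 0 on both days, 5 genes each way at 0 on 1 day, the 10 highest per day, and the 4 largest changes per list, without small or unnamed genes, and *Tfeb* and genes the study names. Other names were chosen after their values were seen. Some genes that the rule names are not reported here. Coordinates of genes are the deposited loci, and promoters came from RefSeq, and reference transcripts of GENCODE gave a length for 4595 genes.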

Additional observations from a re-analysis of the deposited data

How the results depend on the processing

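The counts of rises and falls (153 and 126) and the median of all genes (0.11) moved with the filter, the fold and the sum used for scaling. The median of all genes changed sign under 3 of the other scalings, and falls outnumbered rises under the same 3. Without rescaling there were 136 rises and 141 falls, with a median of -0.12. Rises and falls became 149 and 208 when the highest 50 genes were left out of the column sum, with a median of -0.17, and 127 and 244 with the sum over nuclear protein-coding genes, with a median of -0.37. The median was 0 when centred on it, and with the sum over genes above 0 on both days 0.077. A pseudocount of 5 gave 80 rises and 34 falls, and one of 0.1 gave 185 and 174. A filter of at least 1 FPKM gave 262 and 207 with a median of -0.0067, as did no filter (262 and 207, median -0.029). A filter of at least 10 gave 108 rises and 58 falls with a median of 0.19, and 5 FPKM on both days gave 45 and 9 with a median of 0.19. A limit of 2-fold gave 584 and 433, and one of 8-fold 81 and 56. Without small and unnamed genes there were 78 and 66, with transcripts of at least 1000 nt 64 and 56, and by moves of 25 percentile points 364 and 331. With rows of status OK in both tables there were 114 rises and 75 falls, and 11 of the 194 genes chosen by the rule dropped out. The Day 11 column in place of Day 4 gave 150 and 124. Of 29 lists with at least 5 measured genes, 18 kept the sign of their median over the scalings and 11 did not. Where the pool of the sum differs the shift is by construction, and for the other settings the cause was not tested. The sum over nuclear protein-coding genes, the status filter and the motifs CTGATTGG and TTCNNNGAA were chosen after seeing the data. Leaving out each replicate was not run, as there are no values per animal. No paired analysis was possible because each group has 1 pooled value and different animals were used on each day.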
